A study of Mus musculus with 32 samples.

Results

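The 49 genes described here are the secreted Wnt ligands, their Frizzled receptors and LRP co-receptors, the extracellular antagonists, and the R-spondin ligands with their LGR receptors and the ubiquitin ligases they act on. They were selected with a rule on gene symbols (names of the *Wnt*, *Fzd*, *Dkk*, *Sfrp*, *Rspo* and *Lgr* families, *Lrp5*, *Lrp6*, *Wif1*, *Znrf3* and *Rnf43*), a rule that uses no measured value, and they are 49 of the 22850 genes in the expression table. The table holds 32 samples of RNA from sorted pancreatic islet cells: 12 of β cells (GFP+, gated as CD31- and CD11b-), 10 of endothelial cells (ECs, CD31+) and 10 of macrophages (MΦs, CD11b+). All mice, the untreated ones included, carried MIP-GFP, RIP-rtTA and TetO-VEGF-A, in which the mouse *Ins1* promoter marks β cells with GFP and the rat *Ins2* promoter drives, also in β cells, the transactivator that switches on human VEGF-A when doxycycline (Dox) is in the drinking water; no group without the transgenes was analysed here. The C57BL/6 mice were 8 to 16 weeks old at the start. They were sampled without Dox (No Dox, 4 samples of each cell type), after 1 week of Dox (1wk Dox, 5 β cell, 1 EC and 2 MΦ samples), and 1 week after Dox was withdrawn (1wk WD, 3 β cell, 5 EC and 4 MΦ samples). Per the study's methods each sample pooled islet cells of several mice and the replicates are biological; the labels do not tie samples to mice, and the p-values measure the spread between these pools.

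Wnt proteins are lipid-modified secreted ligands that bind a Frizzled receptor. With the co-receptors LRP5 or LRP6 they stabilize β-catenin, which acts with TCF/LEF factors on target genes, while other Wnt proteins act through Frizzled and the ROR or RYK receptors on cell shape and polarity without β-catenin. SFRP and WIF1 proteins bind the ligand and DKK1, DKK2 and DKK4 bind LRP5 and LRP6, whereas R-spondins acting through LGR receptors remove ZNRF3 and RNF43 and so keep Frizzled at the surface. In endothelium FZD4 is also the receptor of Norrin, a ligand unrelated to Wnt, in a complex with LRP5 and TSPAN12.

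Values are the authors' normalised expression scores, whole numbers with 1 as the lowest; they are not counts, so the depth behind a score is unknown and a score of 1 is only the bottom of the scale. Scores per library summed to between 23465985 and 53441769. The cell types carried their own markers: 9 β cell markers summed to 502570 to 10896496 in β cells against at most 46016 elsewhere, 8 endothelial markers to 334479 to 511038 in ECs against at most 45357, and 8 macrophage markers to 264926 to 484632 in MΦs against at most 7461. Several libraries stood apart in markers of other cells. Among the No Dox β cell libraries, replicates 3 and 4 carried 6 acinar markers at 11589949 and 8647667 against 668932 and 29275 in replicates 1 and 2, and 10 pericyte and stromal markers at 153817 and 540417 against 1031 and 1125. No Dox MΦ replicates 2 and 4 carried acinar markers at 10764262 and 1813975 against 92207 and 22262 in the other two, and No Dox EC replicate 2 at 1604938 against 58798 to 92539. MΦ replicate 2 was also the highest of the MΦ libraries in β cell markers (46016 against 1960 to 6709 in the other No Dox ones) and in 6 alpha and delta cell markers (31600 against 1925 to 9271). Counts of calls are given with and without these libraries. So are the members' No Dox cell type differences printed below that moved by over 1.5-fold without β cell replicates 3 and 4 or MΦ replicates 2 and 4. Time point and interaction values come from all libraries, and only some are given again without these. In bulk RNA, fewer cells of a type and less RNA per cell cannot be told apart.

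The upstream sequences of 5 members are shown: *Wnt4* and *Rspo4*, *Fzd4* and *Wnt11* because they lead the members of β cells, ECs and MΦs below, and *Wnt11* with *Wnt5b* because they held the motif bound by TCF/LEF factors. Each is the 250 bases before an annotated RefSeq start in GRCm38.p6, read 5′ to 3′ on the gene's strand; this is a later build than the mm9 of the expression table. Capitals mark the letters CTTTGAT or, on the other strand, ATCAAAG.
Wnt4, chr4:137277385-137277634, plus strand: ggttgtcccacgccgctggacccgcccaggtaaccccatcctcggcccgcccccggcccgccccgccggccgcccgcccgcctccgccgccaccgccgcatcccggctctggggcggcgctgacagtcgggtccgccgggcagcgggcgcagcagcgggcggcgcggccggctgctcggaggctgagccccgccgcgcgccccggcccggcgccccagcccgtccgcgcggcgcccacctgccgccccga
Rspo4, chr2:151842677-151842926, plus strand: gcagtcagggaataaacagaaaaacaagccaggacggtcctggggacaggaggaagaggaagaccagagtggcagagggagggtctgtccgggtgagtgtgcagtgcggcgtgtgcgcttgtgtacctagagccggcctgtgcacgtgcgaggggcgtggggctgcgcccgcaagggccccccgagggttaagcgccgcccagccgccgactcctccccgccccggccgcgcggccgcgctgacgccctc
Fzd4, chr7:89404116-89404365, plus strand: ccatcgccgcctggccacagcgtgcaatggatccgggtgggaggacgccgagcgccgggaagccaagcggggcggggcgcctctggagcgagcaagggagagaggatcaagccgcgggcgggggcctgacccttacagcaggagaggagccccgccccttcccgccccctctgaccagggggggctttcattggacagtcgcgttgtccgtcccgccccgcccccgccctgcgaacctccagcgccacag
Wnt11, chr7:98834862-98835111, plus strand: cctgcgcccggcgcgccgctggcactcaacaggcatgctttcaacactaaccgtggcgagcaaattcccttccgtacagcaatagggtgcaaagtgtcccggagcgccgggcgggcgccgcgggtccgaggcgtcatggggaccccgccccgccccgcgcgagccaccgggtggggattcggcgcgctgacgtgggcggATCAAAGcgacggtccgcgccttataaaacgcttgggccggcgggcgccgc
Wnt5b, chr6:119449387-119449636, minus strand: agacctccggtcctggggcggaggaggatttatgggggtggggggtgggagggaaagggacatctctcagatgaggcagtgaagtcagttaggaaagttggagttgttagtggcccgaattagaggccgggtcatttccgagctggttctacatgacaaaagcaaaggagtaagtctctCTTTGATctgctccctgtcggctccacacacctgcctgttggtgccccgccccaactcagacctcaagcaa
RefSeq promoters were held for 31 of the 49 members, 35 in all. The motif CTTTGAT, sought on both strands, lay in 2 of the 35 (5.71%), beginning 51 bases before 1 of the 2 starts of *Wnt11* and 71 bases before 1 of the 3 starts of *Wnt5b*, the ones shown, and in 1053 of 32851 promoters of all genes (3.21%). The windows of *Wnt4*, *Rspo4* and *Fzd4* did not hold these letters. The 5 windows were between 55.6% (*Wnt5b*) and 85.2% (*Wnt4*) G and C.

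Of the 49 members, 22 had a mean score of at least 200 in at least 1 of the 9 groups of cell type and time point, 15 peaked at a mean between 20 and 200, and 12 stayed under 20 in every group. Only 7 were at a mean of 200 or more in all 9 groups: *Wnt2b*, *Wnt4*, *Fzd5*, *Lrp5*, *Lrp6*, *Lgr4* and *Znrf3*. Of the 19 ligands, 8 never reached a group mean of 20, among them *Wnt1*, *Wnt2*, *Wnt3*, *Wnt7a* and *Wnt7b*, and *Wnt3a* was at 1 in all 32 samples. Thus few ligands were measured well above the bottom of the scale, and several of those differed by cell type (heat map of members by sample).

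**Figure D1:**
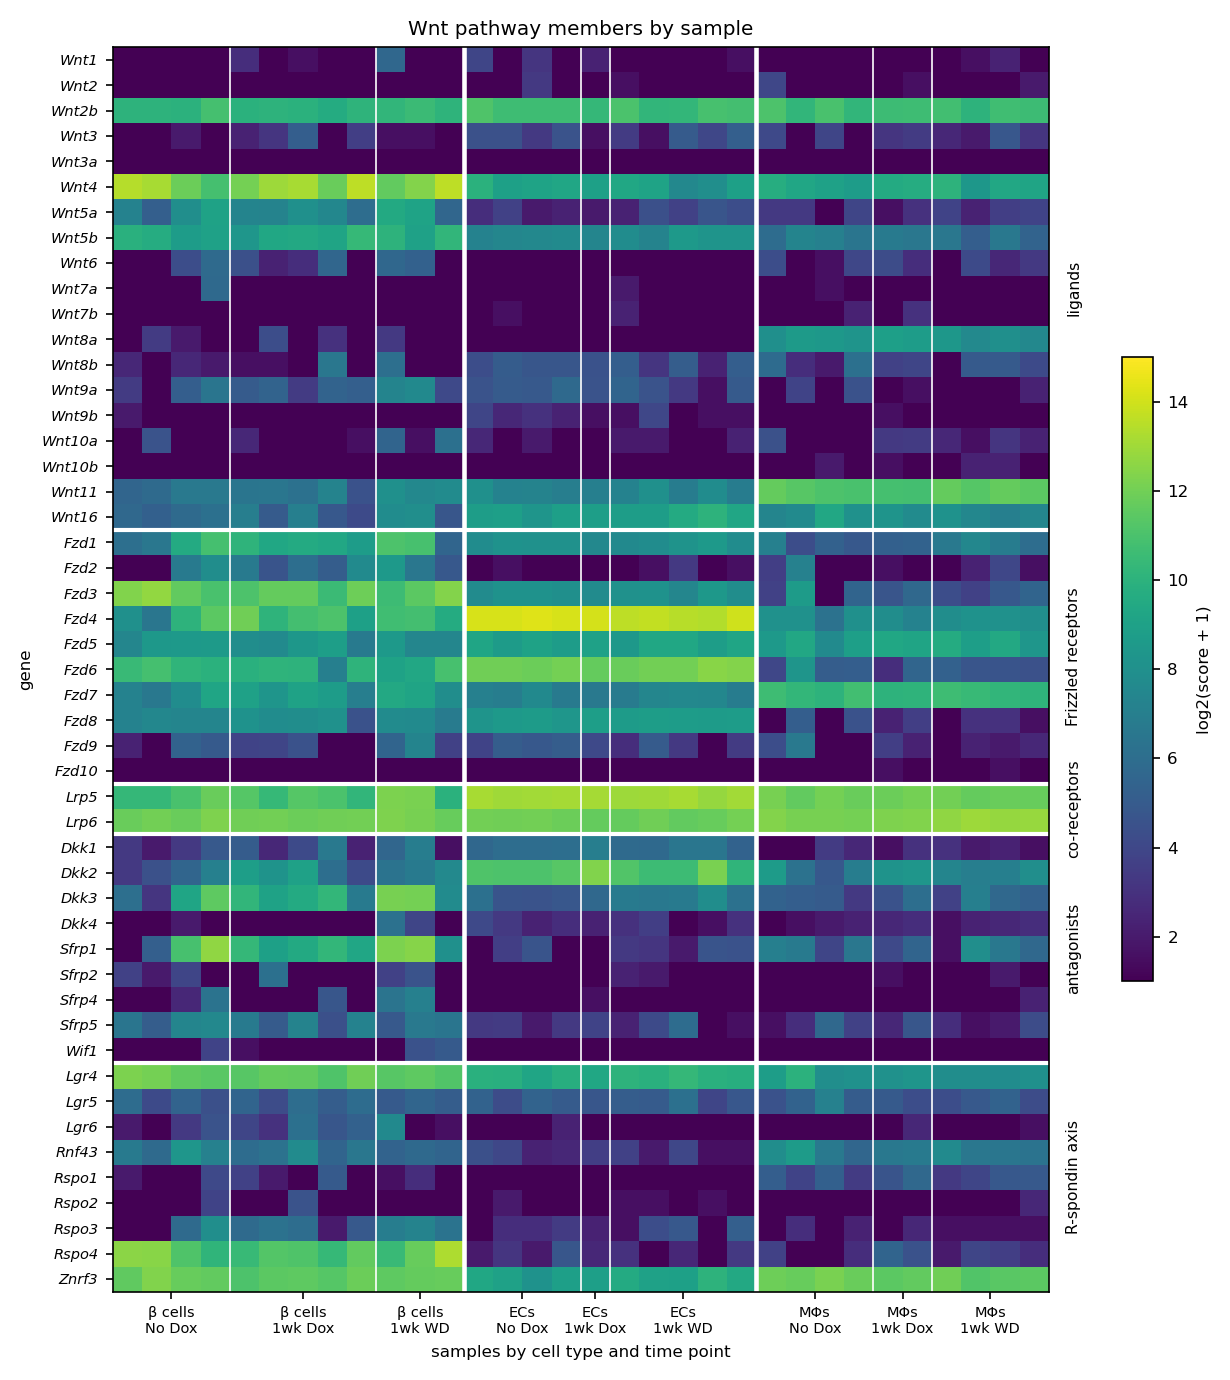
Heat map of log2(score + 1) for the 49 members (rows, by role) in the 32 samples (columns, by cell type and time point). *Wnt4*, *Rspo4* and *Fzd3* are bright in β cells, *Fzd4*, *Fzd6* and *Dkk2* in ECs, and *Wnt11*, *Wnt8a* and *Fzd7* in MΦs, while *Wnt2b*, *Lrp5* and *Lrp6* are bright throughout.

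To set members side by side, scores were divided by the kilobases of annotated exon (GENCODE M1), a scale on which uneven coverage along transcripts, which was not tested here, still counts. Among ligands at No Dox, *Wnt4* was highest in β cells at a mean of 1543 per kilobase, followed by *Wnt2b* at a mean of 348. In replicates 1 and 2, however, *Wnt5b* came second (355 and 305 per kilobase, against 298 and 299 for *Wnt2b*). *Wnt4* led in 3 of the 4 libraries, but in the stromal-rich replicate 4 *Wnt2b* did, at 514 per kilobase against 440 for *Wnt4*. In ECs *Wnt2b* led at 492 per kilobase, followed by *Wnt4* at 159, and in MΦs *Wnt11* led at 693, followed by *Wnt2b* at 462. The leading Frizzled also differed between the 3 cell types. It was *Fzd3* in β cells (1018 per kilobase, ahead of *Fzd6* at 332), *Fzd4* in ECs (5032, ahead of *Fzd6* at 977) and *Fzd7* in MΦs (295.5, ahead of *Fzd5* at 62.4). *Fzd3* led in 3 of the 4 β cell libraries, while in replicate 4 *Fzd4* was at 773 per kilobase and *Fzd3* at 478. In ECs and MΦs the leading ligand and Frizzled were the same in all 4 libraries.

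In β cells the members that stood out were a ligand, *Wnt4*, an R-spondin, *Rspo4*, a receptor, *Fzd3*, and the R-spondin receptor *Lgr4*. *Wnt4*, a ligand known for its part in kidney and gonad development, scored 11227, 9154, 3663 and 1844 at No Dox, 4378, 7817, 9109, 3571 and 12266 with Dox, then 3188, 5443 and 12620 after withdrawal. All 12 β cell values lay above all 20 values of the other cell types, which ran from 182 to 992 in ECs and from 335 to 1068 in MΦs. At No Dox *Wnt4* was lower in ECs than in β cells by a log2 difference of -2.99 (SE 0.50, limma, adjusted p = 0.000397) and lower in MΦs by -3.13 (SE 0.50, adjusted p = 0.00024). Without β cell replicates 3 and 4 these were -3.98 (adjusted p = 1.84e-06) and -4.11 (adjusted p = 1.26e-06).

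*Rspo4*, one of the secreted R-spondins that amplify Wnt signals, scored 6059, 5934, 2246 and 1136 in No Dox β cells, 1396, 2408, 2221, 1353 and 3154 with Dox, then 1427, 3412 and 9927 after withdrawal. It was near the bottom of the scale elsewhere, at 1 to 26 in ECs and 1 to 45 in MΦs. These were the largest differences of any member at No Dox, with a log2 value of -8.62 in ECs (SE 0.86, adjusted p = 9.15e-06) and -9.47 in MΦs (SE 0.86, adjusted p = 4.01e-06), both against β cells. Without β cell replicates 3 and 4 they were -9.57 (adjusted p = 1.21e-05) and -10.42 (adjusted p = 5.85e-06). The annotation places a processed transcript on the opposite strand of *Rspo4*, and use of strand in the counting is not given in the sources used here. The other R-spondins stayed low, *Rspo1* at or under 53, *Rspo2* at or under 23 and *Rspo3* at or under 240 in any sample.

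*Fzd3*, a Frizzled known from axon guidance and planar polarity, scored 5253, 6752, 3193 and 2022 in No Dox β cells and between 1515 and 5491 at the later time points. It was 168 to 348 in ECs and 1 to 404 in MΦs, where the 404 belongs to No Dox MΦ replicate 2, the library highest in acinar, β cell and alpha and delta cell markers; the part of those cells' RNA was not tested. The No Dox difference from β cells was -3.93 in ECs (SE 1.20, adjusted p = 0.0179) and -7.21 in MΦs (SE 1.20, adjusted p = 0.000347). Without β cell replicates 3 and 4 they were -4.54 (adjusted p = 0.027) and -7.83 (adjusted p = 0.00121), and without MΦ replicates 2 and 4 the latter was -9.58 (adjusted p = 8.71e-06). *Lgr4*, a receptor of R-spondins, scored 4759, 4283, 3038 and 2756 in No Dox β cells and 2259 to 3938 later, against 595 to 1296 in ECs and 226 to 1031 in MΦs. The β cell values lay above all others, and the No Dox differences were -2.14 in ECs (SE 0.40, adjusted p = 0.000888) and -3.11 in MΦs (SE 0.40, adjusted p = 4.83e-05). *Wnt5b*, a ligand mostly linked to β-catenin-independent signals, scored 933, 800, 424 and 520 in No Dox β cells, against 148 to 207 in ECs and 60 to 160 in MΦs (differences of -1.85, SE 0.37, adjusted p = 0.00144, and -2.62, SE 0.37, adjusted p = 9.99e-05). A coding gene on the opposite strand, *Fbxl14*, overlaps *Wnt5b*, so its reads may be shared.

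*Wnt5a*, the best known ligand of the β-catenin-independent branch, was also higher in β cell libraries than in ECs (-4.64, SE 0.86, adjusted p = 0.00089) and MΦs (-4.46, SE 0.86, adjusted p = 0.000982) at No Dox. It varied widely among them, at 144, 37, 240 and 534, and was highest at 534 in replicate 4, the library with the most stromal markers. Without replicates 3 and 4 the differences were -3.51 (adjusted p = 0.00645) and -3.33 (adjusted p = 0.00797), and without MΦ replicates 2 and 4 the latter was -5.19 (adjusted p = 0.00316). ECs scored 3 to 25 and MΦs 1 to 14.

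In ECs the members that stood out were the receptors *Fzd4* and *Fzd6*, the co-receptor *Lrp5* and the antagonist *Dkk2*. *Fzd4* scored 17924, 18005, 20325 and 17917 at No Dox, against 257, 89, 1074 and 2849 in β cells and 265, 275, 78 and 258 in MΦs. These 4 EC values were the highest of any member in any sample, and the No Dox differences were 5.16 over β cells (SE 0.86, adjusted p = 0.000408) and 6.56 over MΦs (SE 0.86, adjusted p = 6.13e-05). Over β cells it was 6.93 (SE 0.52, adjusted p = 1.26e-06) without β cell replicates 3 and 4. *Lrp5* scored 9148, 8127, 8517 and 8862 in No Dox ECs, 1283, 1257, 2048 and 3531 in β cells and 4529, 3164, 4291 and 3593 in MΦs. ECs were above MΦs by 1.17 (SE 0.28, adjusted p = 0.00499; 0.97 and adjusted p = 0.0601, not called, without MΦ replicates 2 and 4) and above β cells by 2.23 (SE 0.28, adjusted p = 5.16e-05), and MΦs were above β cells by 1.06 (SE 0.28, adjusted p = 0.00717).

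*Dkk2*, which binds LRP5 and LRP6 and is counted among the Wnt antagonists, scored 2239, 2148, 2146 and 2592 in No Dox ECs, 9, 21, 47 and 138 in β cells and 409, 76, 28 and 120 in MΦs. The groups did not overlap, with differences of 6.03 over β cells (SE 0.84, adjusted p = 0.000113) and 4.47 over MΦs (SE 0.84, adjusted p = 0.000981). Over β cells it was 7.26 (adjusted p = 2.48e-05) without β cell replicates 3 and 4. *Fzd6*, which can restrain β-catenin signals, scored 3936, 3947, 3685 and 4377 in No Dox ECs, 1439, 1874, 1148 and 964 in β cells and 15, 311, 34 and 35 in MΦs, again highest in MΦ replicate 2, the library highest in acinar and β cell markers. It was higher in ECs than in MΦs by 6.31 (SE 0.69, adjusted p = 1.42e-05), and by 7.39 (adjusted p = 5.03e-07) without MΦ replicates 2 and 4. The test between ECs and β cells was not passed at No Dox but was at 1wk WD (2.36, SE 0.37, adjusted p = 0.000138). *Fzd8* scored 298 to 455 in ECs, 22 to 282 in β cells and 1 to 35 in MΦs, a No Dox difference of 5.51 between ECs and MΦs (SE 0.86, adjusted p = 0.000243) that was 7.44 (adjusted p = 6.96e-07) without MΦ replicates 2 and 4. The ligand *Wnt16* scored 443, 484, 320 and 482 in No Dox ECs, above β cells at 38 to 71 (2.97, SE 0.42, adjusted p = 0.000127), while MΦs at 165, 203, 670 and 274 overlapped ECs.

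In MΦs the members that stood out were the ligands *Wnt11* and *Wnt8a* and the receptor *Fzd7*. *Wnt11*, a ligand of the polarity branch, scored 3301, 2606, 2151 and 2009 at No Dox. The 1wk Dox values were 1838 and 1833, and those at 1wk WD were 3274, 2554, 3303 and 2880. No β cell or EC library exceeded 264, and the No Dox differences were 5.07 over β cells (SE 0.33, adjusted p = 3.99e-07) and -3.89 for ECs against MΦs (SE 0.33, adjusted p = 1.93e-06). A pseudogene overlaps *Wnt11* on the opposite strand. *Wnt8a*, otherwise known from the early embryo, scored 248, 388, 359 and 297 in No Dox MΦs, then 482 and 424 with Dox, and 342, 190, 249 and 184 after withdrawal. It was at 1 in all 10 EC libraries and at or under 19 in β cells, and MΦs exceeded β cells at No Dox by 6.45 (SE 0.56, adjusted p = 3.05e-06). *Fzd7* scored 1638, 1232, 1070 and 1735 in No Dox MΦs, against 149, 97, 226 and 599 in β cells and 136, 120, 198 and 108 in ECs (2.72, SE 0.47, adjusted p = 0.000462, and -3.34 for ECs against MΦs, SE 0.47, adjusted p = 0.000112). Without β cell replicates 3 and 4 the difference from β cells was 3.52 (adjusted p = 6.28e-06).

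**Figure D2:**
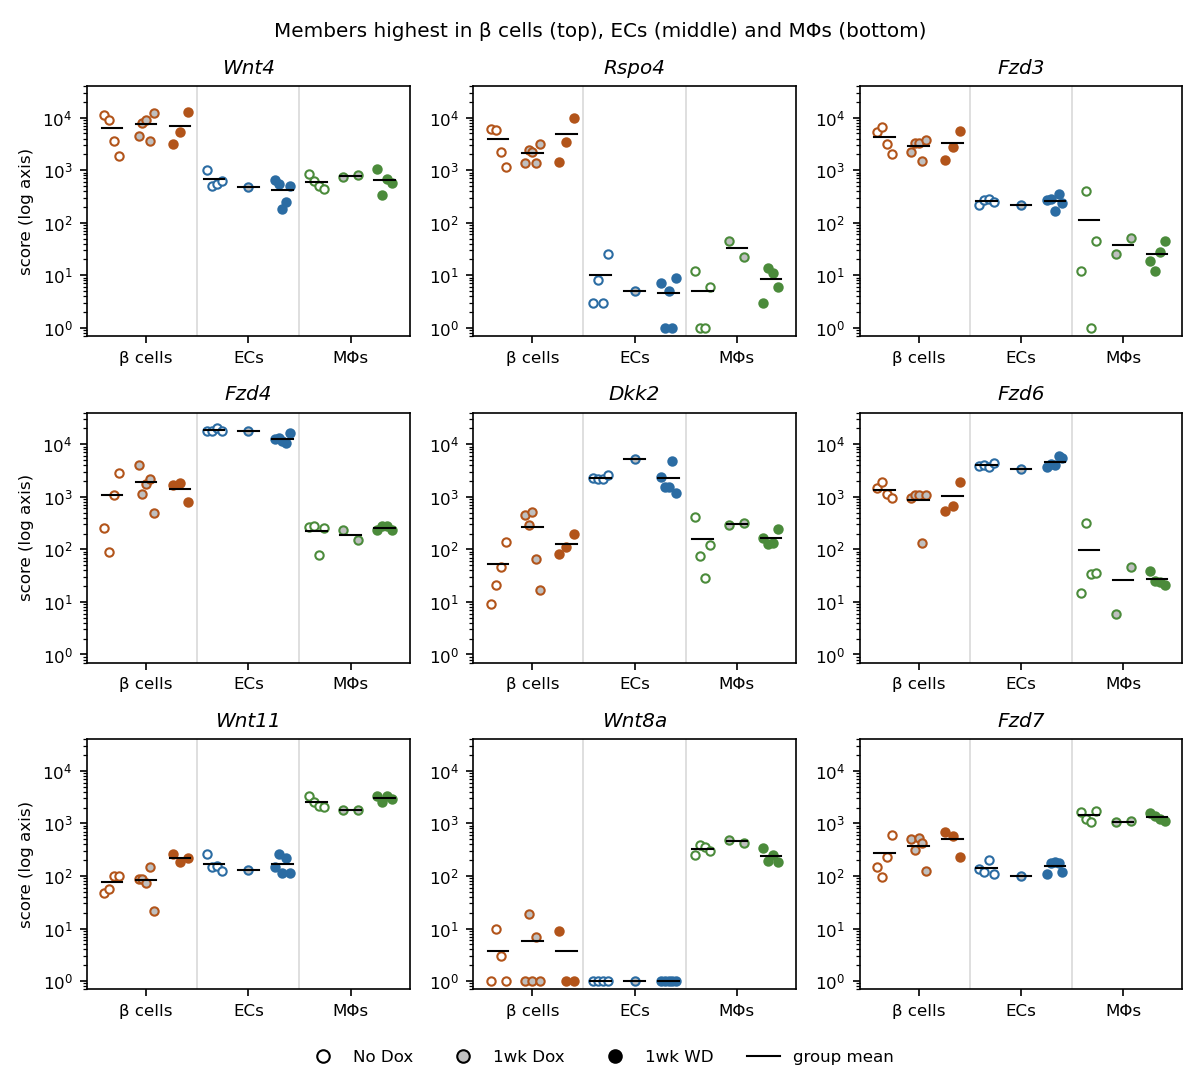
Score in every sample (log axis, lowest score 1) for 9 members in β cells, ECs and MΦs; open, grey and filled points are No Dox, 1wk Dox and 1wk WD, and bars are group means. *Rspo4* is at 1136 or more in all β cell libraries and at 45 or less elsewhere, and *Wnt8a* is at 184 or more in MΦs and at 19 or less elsewhere.

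*Znrf3*, a ubiquitin ligase that removes Frizzled from the surface, was shared by β cells and MΦs and low in ECs. It scored 3042, 5122, 3408 and 3173 in No Dox β cells and 3878, 3425, 4659 and 3562 in MΦs, which overlapped, against 652, 518, 278 and 476 in ECs. The EC values were lower than β cells by -2.97 (SE 0.25, adjusted p = 2.8e-06) and than MΦs by -3.06 (SE 0.25, adjusted p = 1.36e-06). Its relative *Rnf43*, with group means under 200, was also lower in ECs than in either (-3.70, SE 0.78, adjusted p = 0.00199, and -3.87, SE 0.78, adjusted p = 0.0015), the first being -2.99 (adjusted p = 0.0158) without β cell replicates 3 and 4. *Wnt2b* did not pass a test between any of the cell types at either time point. It ranged from 777 to 1838 in β cells, 1196 to 2227 in ECs and 1066 to 2170 in MΦs. *Lrp6* at No Dox was 3528 to 4968 in β cells, 3694 to 4189 in ECs and 4318 to 5347 in MΦs, with no test passed. *Fzd5* at No Dox was 168 to 388, 417 to 604 and 209 to 665, also with no test passed, but at 1wk WD it was higher than in β cells both in ECs (1.24, SE 0.37, adjusted p = 0.0126) and in MΦs (1.28, SE 0.39, adjusted p = 0.0121).

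In the test of all genes, a gene passed at a 2-fold or larger difference with an adjusted p under 0.05. At No Dox, 16 of 33 members tested passed between ECs and β cells (48.5%, against 37.7% of all genes tested), 7 higher and 9 lower in ECs. Between MΦs and β cells 16 of 33 passed (48.5%, against 43.2%), 6 higher and 10 lower in MΦs, and between ECs and MΦs 14 of 33 (42.4%, against 33.5%), 8 higher and 6 lower in ECs. Without No Dox β cell replicates 3 and 4 the counts were 17, 15 and 16 of 31 members, where 45.4%, 49.3% and 37.7% of all genes passed. Without No Dox MΦ replicates 2 and 4 they were 18, 14 and 14 of 33, against 37.1%, 41.8% and 32.3% of genes. Without No Dox EC replicate 2 both EC comparisons gave fewer, 15 and 12 of 33, against 34.7% and 31.4%. The same contrasts at 1wk WD, in other samples, gave 25, 23 and 17 of 37 members (67.6%, 62.2% and 45.9%, against 39.9%, 46.2% and 40.3% of all genes). Against β cells, 7 were higher and 18 lower in ECs, and 5 higher and 18 lower in MΦs. Between ECs and MΦs, 11 were higher and 6 lower in ECs. The 1wk WD β cell libraries had stromal marker sums of 369149, 335307 and 25966, and the part of stromal RNA in these counts was not tested. In each of the 3 contrasts 13 of the 33 members tested at both time points passed at both in the same direction, against 29%, 35.3% and 28.8% of all genes. That is 81.2%, 81.2% and 92.9% of the members called at No Dox (75.2%, 79.8% and 83.9% for all genes) and 52.0%, 56.5% and 76.5% of those called at 1wk WD (70.7%, 74.2% and 69.4%).

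**Figure D3:**
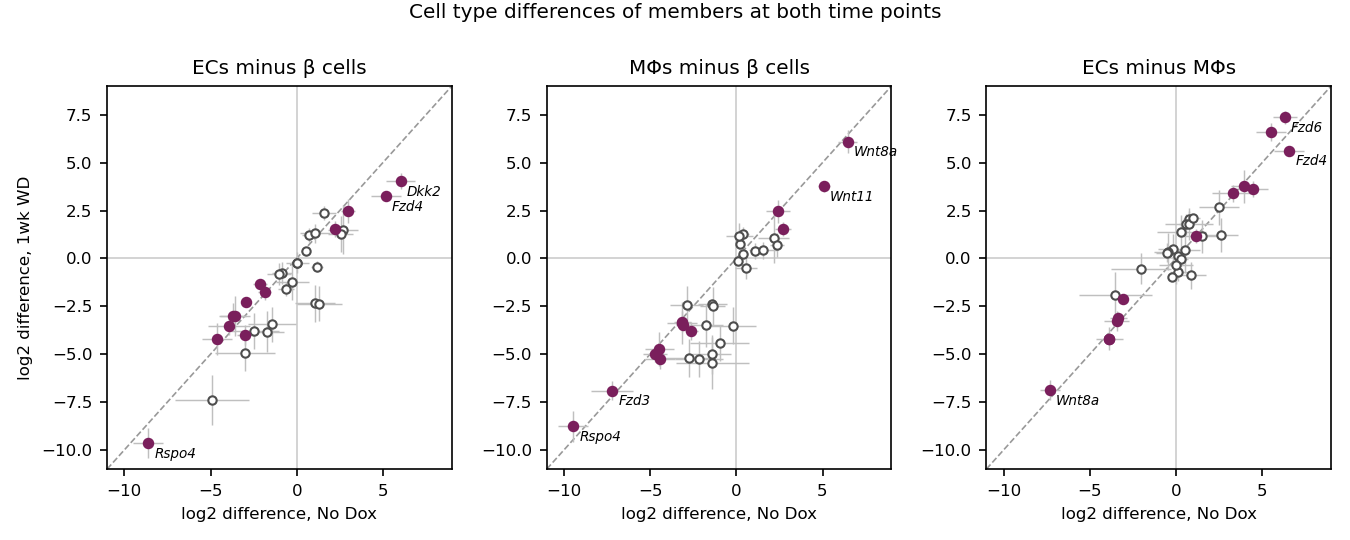
Log2 differences between cell types at No Dox (horizontal) and 1wk WD (vertical) for members tested at both, with SE bars; filled points passed at both times, open points did not, and the dashed line marks equal values. *Rspo4* lies at the lower left of both β cell panels, *Wnt8a* at the upper right of MΦs minus β cells, and *Fzd4*, *Fzd6* and *Dkk2* at the upper right of ECs minus MΦs.

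Passing at both time points against both other cell types placed 7 of the 33 members as highest in β cells (*Wnt4*, *Wnt5a*, *Wnt5b*, *Fzd3*, *Lgr4*, *Rspo4* and *Sfrp5*, against 11% of all genes), 3 in ECs (*Fzd4*, *Lrp5* and *Dkk2*, against 6.27%) and 4 in MΦs (*Wnt8a*, *Wnt11*, *Fzd7* and *Rspo1*, against 9.28%). By the same rule *Znrf3* and *Rnf43* were lowest in ECs (5.24% of genes), and *Fzd3*, *Fzd6* and *Fzd8* were lowest in MΦs (6.45%). Not all of these placings held under the alternative settings tried. The call of *Fzd3* between ECs and MΦs at No Dox (3.28, SE 1.20, adjusted p = 0.0445) was lost in 10 of 20, among them without EC replicate 2 (3.25, adjusted p = 0.0848) or MΦ replicate 4 (3.54, 0.0588). It was larger without MΦ replicate 2 (4.60, adjusted p = 0.00115) and without MΦ replicates 2 and 4 (5.65, 0.000183). That of *Sfrp5* between MΦs and β cells at No Dox was lost without β cell replicates 3 and 4 (0.0681) and without MΦ replicates 2 and 4 (0.055), and its 1wk WD calls were lost in 9 of 17 (ECs) and 4 of 16 (MΦs). *Rspo1* calls against β cells were lost in 2 of 18 settings at No Dox and 1 of 14 at 1wk WD. Against ECs its 1wk WD call was lost in 1 of 16. *Wnt5b*, *Lrp5* and *Rnf43* each lost the 1wk WD call between ECs and β cells in 1 setting. The low-level members among these were *Sfrp5*, an SFRP antagonist, at 34 to 183 in No Dox β cells, *Rspo1*, at 10 to 38 in No Dox MΦs, and *Rnf43*, at 4 to 20 in No Dox ECs, 57 to 321 in β cells and 48 to 404 in MΦs. Besides *Wnt16*, 3 members passed at No Dox without being placed by this rule. *Dkk1* was higher in ECs (50 to 66) than in β cells (3 to 29, difference 2.55, SE 0.71, adjusted p = 0.0113) and MΦs (1 to 10, difference 3.92, SE 0.71, adjusted p = 0.00076). Without β cell replicates 3 and 4 the first was 3.27 (adjusted p = 0.00369). *Wnt8b* was higher in ECs (19 to 33) than in β cells (1 to 5; 2.69, SE 0.89, adjusted p = 0.026), a call lost in 5 of 19 settings. *Fzd1* was lower in MΦs (19 to 137) than in β cells (69 to 1894; -2.88, SE 0.97, adjusted p = 0.0251), which without β cell replicates 3 and 4 was -0.93 (adjusted p = 0.248, not called). Without MΦ replicates 2 and 4 the *Fzd1* difference between MΦs and β cells was -2.07 (adjusted p = 0.185, not called). Its difference between ECs (226 to 284) and MΦs, 2.63 (SE 0.97, adjusted p = 0.0461), was 1.81 (adjusted p = 0.283) without MΦ replicates 2 and 4.

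Other genes of the pathway differed between the cell types too. *Tspan12*, the partner of FZD4 and LRP5 in the Norrin receptor, scored 12189 to 13825 in No Dox ECs against 22 to 40 in MΦs (8.68, SE 0.92, adjusted p = 1.12e-05), whereas *Ndp*, the gene of Norrin itself, was at 1 to 3 in 31 samples and 21 in the other. *Ror2*, a receptor of WNT5A, scored 5774 to 12359 in No Dox β cells against 9 to 50 in ECs (-8.47, SE 0.80, adjusted p = 6.08e-06), and *Ryk*, another such receptor, was lower in MΦs than in β cells (-4.14, SE 0.43, adjusted p = 1.15e-05; -4.75 and 1.47e-06 without MΦ replicates 2 and 4). *Wls*, which carries Wnt proteins to the surface, had means of 3620 in β cells, 2229 in MΦs and 835 in ECs, the last lower than β cells by -2.07 (SE 0.22, adjusted p = 1.67e-05). *Porcn*, which attaches their lipid, was lower in MΦs than in β cells (-1.39, SE 0.40, adjusted p = 0.0119; -2.02 and 0.00212 without MΦ replicates 2 and 4). Among target genes, *Axin2* scored 163 to 419 in No Dox β cells, 88 to 107 in ECs and 1 to 54 in MΦs, where it was lower than in β cells (-5.84, SE 0.92, adjusted p = 0.000222) and ECs. The 54 was again MΦ replicate 2, and without it the difference from β cells was -6.98 (adjusted p = 7.82e-07). *Apcdd1* was higher in ECs (1284 to 1445) than in β cells (5.12, SE 1.55, adjusted p = 0.0171), whose libraries were at 3, 2, 276 and 743. Without β cell replicates 3 and 4 that difference was 8.63 (adjusted p = 1.16e-06). *Lef1* was lower in MΦs than in β cells (-2.98, SE 0.41, adjusted p = 7.73e-05).

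During Dox no β cell member passed the test. Of 35 members tested between 1wk Dox and No Dox, 0 had a 2-fold difference with an unadjusted p under 0.05, against 4.04% of all genes. The 2 groups did not overlap for 0 of the 35, against 2.55%. With limma, 2 of 16346 genes passed (0.0122%). At 1wk WD against No Dox 0 of 35 members and 0.00% of genes passed, and 3 members had a 2-fold difference with an unadjusted p under 0.05 (4.45% of genes). These were *Wnt11* (1.59, SE 0.61, adjusted p = 0.599), *Dkk4* (2.46, SE 1.07, adjusted p = 0.601) and *Rnf43* (-1.45, SE 0.66, adjusted p = 0.61), none of which is called changed. *Rnf43* scored 108, 57, 321 and 142 at No Dox, its higher values being in replicates 3 and 4, and 43, 54 and 44 at 1wk WD.

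*Wnt11* scored 47, 56, 102 and 102 in No Dox β cells, 86, 89, 75, 150 and 22 with Dox, and 263, 187 and 218 after withdrawal. The 3 WD values lay above all 9 earlier ones. Beside them, the 8 macrophage markers summed to 7461, 4971 and 6846 at 1wk WD against 1148, 575, 2999 and 5368 at No Dox and 2563, 1762, 2253, 5203 and 1402 with Dox. The β cell gate was CD11b-, and the part of MΦ RNA, in which *Wnt11* is high, was not tested. Against 1wk Dox the difference was 1.60 (SE 0.59, adjusted p = 0.675), also not called. Not overlapping in this way were 2 of 35 members between 1wk WD and No Dox (*Wnt11* and *Rnf43*, against 6.44% of genes) and 2 between 1wk WD and 1wk Dox (*Wnt11* and *Rspo3*, against 4.97%). Against 1wk Dox, *Wnt10a* (2.99, SE 1.20, adjusted p = 0.719) and *Dkk4* (2.71, SE 1.02, adjusted p = 0.675) also differed 2-fold at an unadjusted p under 0.05, so with *Wnt11* 3 of 35 did (2.88% of genes). The call rule was passed by 0 members and 0.00% of genes.

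The β cell libraries differed widely within a time point. *Sfrp1*, an SFRP antagonist, scored 1, 37, 1981 and 6514 at No Dox, 1294, 490, 738, 1234 and 620 with Dox, and 4916, 5723 and 257 after withdrawal. Beside it, the summed score of the 10 pericyte and stromal markers was 1031, 1125, 153817 and 540417, then 505631, 163347, 285223, 446322 and 107869, then 369149, 335307 and 25966. The 3 libraries lowest in these markers, No Dox replicates 1 and 2 and 1wk WD replicate 3, were also the 3 lowest in *Sfrp1*. Of the β cell libraries, only 1wk WD replicate 3 carries a library number from another range than the rest. *Dkk3*, a DKK relative that does not act on LRP in the manner of the others, scored 67, 8, 608 and 2916 at No Dox, 1182, 532, 756, 1223 and 103 with Dox, and 4469, 4290 and 211 after withdrawal. *Fzd1* scored 69, 92, 761 and 1894, then 1120, 651, 747, 683 and 422, then 2159, 1938 and 47. *Fzd4* scored 257, 89, 1074 and 2849, then 4045, 1116, 1786, 2175 and 487, then 1670, 1800 and 786. *Sfrp1* and *Fzd1* were thus lowest in the 3 libraries poor in stromal markers, whereas *Dkk3* and *Fzd4* were lower in 1wk Dox replicate 5 than in 1wk WD replicate 3. *Fzd4* is the leading EC member, and the 8 endothelial markers summed in these libraries to 1861, 1398, 3879 and 6483, then 45357, 15356, 20598, 5221 and 1235, then 3593, 5829 and 15118. Its highest value, 4045, was in the library with the highest endothelial sum, and the sums of 1wk Dox replicate 5 and 1wk WD replicate 3 were 1235 and 15118.

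The 7 members highest in β cells did not share 1 pattern across these libraries. *Rspo4* and *Fzd3* were highest in those 3 libraries, at 5934 to 9927 and 5253 to 6752. *Wnt4* was high there, at 9154 to 12620, but 1wk Dox replicate 5 was as high at 12266. *Wnt5b* was 933, 800 and 1185 there and 325 to 1311 in the other 9, *Lgr4* 4759, 4283 and 2320 against 2259 to 3938, and *Sfrp5* 87, 34 and 87 against 20 to 183. *Wnt5a* was 144, 37 and 49 there and reached 731 in the other 9. Beside these, the summed β cell markers were 8675620, 5546741 and 10896496 there against 502570 to 2941199 in the other 9. *Wnt2b*, by contrast, scored 1065, 1068 and 1085 there and 777 to 1838 in the other 9. The sort took GFP+ cells from those negative for CD31 and CD11b, a gate that would remove ECs and MΦs but not stromal or acinar cells by these antigens. What part stromal, endothelial or other cells had in these values was not tested. Without No Dox β cell replicates 3 and 4, 3 members passed between 1wk Dox and No Dox (*Sfrp1*, *Fzd2* and *Fzd4*, all higher at 1wk Dox; 7.36% of genes) and 5 between 1wk WD and No Dox (*Sfrp1*, *Dkk3*, *Rspo3*, *Fzd2* and *Fzd4*, all higher at 1wk WD; 8.74% of genes). The 2 No Dox libraries left in that fit are the ones with stromal marker sums of 1031 and 1125, so these calls set stromal-poor against mostly stromal-rich libraries.

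**Figure D4:**
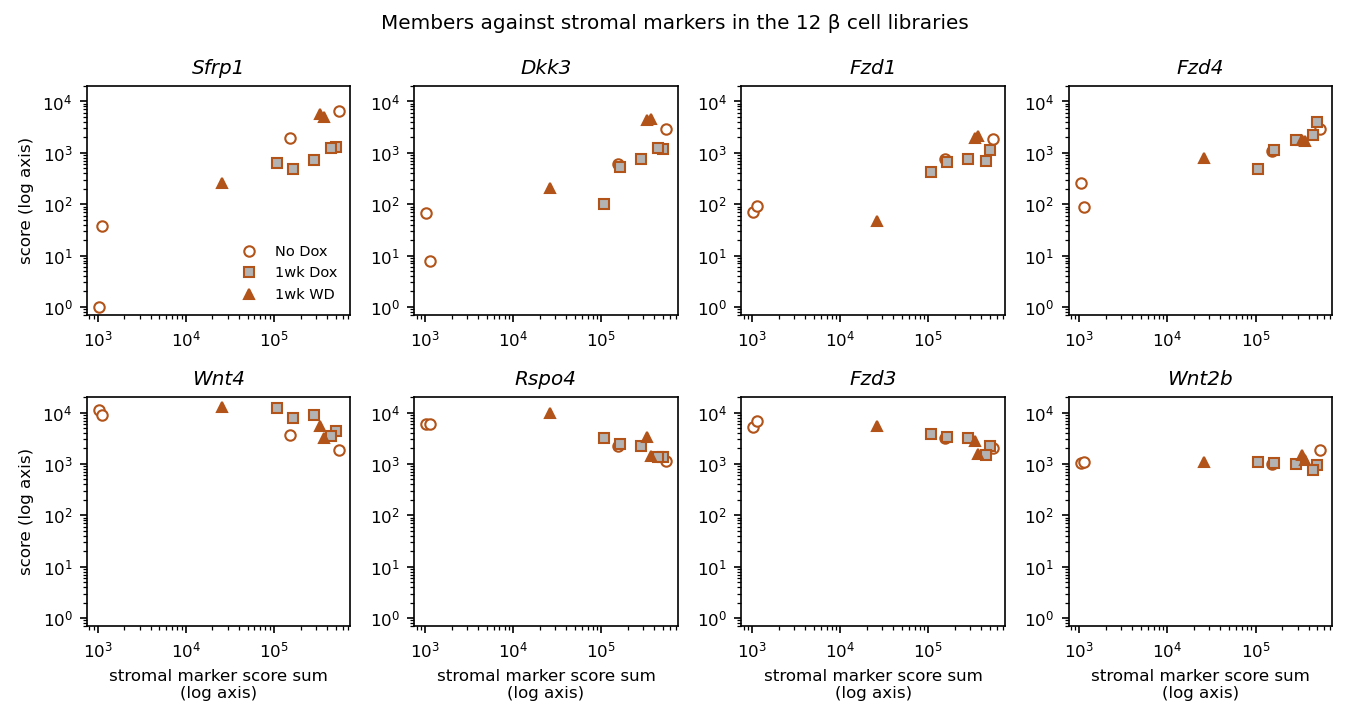
Score of 8 members (vertical, log axis) against the summed score of 10 pericyte and stromal markers (horizontal, log axis) in the 12 β cell libraries; circles are No Dox, squares 1wk Dox and triangles 1wk WD. *Sfrp1* runs from 1 in the library lowest in stromal markers to 6514 in the highest, *Rspo4* and *Fzd3* are highest in the 3 libraries on the left, and *Wnt2b* lies between 777 and 1838 throughout.

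In ECs 1 of 23 members tested passed between 1wk WD and No Dox (4.35%, against 1.76% of all genes). This was *Dkk3*, at 71, 24, 23 and 27 in No Dox ECs and 108, 98, 105, 229 and 75 at 1wk WD, with the single 1wk Dox sample at 52. The groups did not overlap and the log2 difference was 1.79 (SE 0.42, adjusted p = 0.0334). The same gene was the 1 of the 23 members that had a 2-fold difference at an unadjusted p under 0.05 (4.79% of genes). The 10 stromal markers were higher beside it, their sum being 5637 to 12607 at No Dox and 16858 to 70818 at 1wk WD. There 5 of the 10 did not overlap between the groups, *Lum* was at 1 in at least 1 EC library, and the other 9 were above 1 in all of them. The 2 libraries highest in these markers, 1wk WD replicates 1 and 4, had the highest *Dkk3* (108 and 229), and without them the difference was 1.48 (adjusted p = 0.112). The call was also lost without 1wk WD replicate 1 (adjusted p = 0.0529), 3 (0.058) or 4 (0.059) or No Dox replicate 2 (0.0972), 3 (0.109) or 4 (0.0919), and the part of stromal RNA in it was not tested.

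*Fzd4*, named after its values were seen because its groups separated without a 2-fold difference, was lower at 1wk WD. It scored 12646, 13242, 11458, 10738 and 16129 there against 17917 to 20325 at No Dox and 17825 at 1wk Dox, a log2 difference of -0.54 (SE 0.12, adjusted p = 0.0251). All 5 WD values lay under all 4 No Dox values, while of the 8 endothelial markers 2 were lower without overlap and 6 overlapped. The 2 were *Kdr* (39326 to 61402 against 92107 to 105159) and *Tie1* (12189 to 15665 against 15864 to 18478). *Pecam1* was 64455 to 79350 against 61523 to 75751, and the 7 markers besides *Kdr* summed to 290457 to 324980 against 314043 to 344522. With *Kdr* all 8 summed to 334479 to 381790 against 415293 to 449681, which did not overlap. The 4 lymphatic markers (11596 to 11986 against 13961 to 16763) and the acinar markers (677 to 57218 against 58798 to 1604938) did not overlap either, and the part of these in the *Fzd4* result was not tested. In all, 3 of 23 members did not overlap between these groups (*Dkk3*, *Fzd4* and *Fzd8*), against 10.7% of genes. *Fzd8* was 298 to 403 at No Dox and 417 to 442 at 1wk WD, with an adjusted p of 0.25. *Dkk2* scored 2337, 1552, 1557, 4702 and 1158 at 1wk WD, on both sides of its No Dox range of 2146 to 2592.

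With 1 EC sample at 1wk Dox there is no test. Its library number is from another range than those of the other EC libraries, so 1wk Dox and that range cannot be told apart. In it, 11 of the 23 members tested lay outside the No Dox range, against 62.1% of all genes, and 2 differed from the No Dox mean by 2-fold or more, against 10.7% of genes: *Dkk2* at 5254 (1.21 on the log2 scale) and *Dkk1*, the classic LRP antagonist, at 128 against 50 to 66 (1.08).

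**Figure D5:**
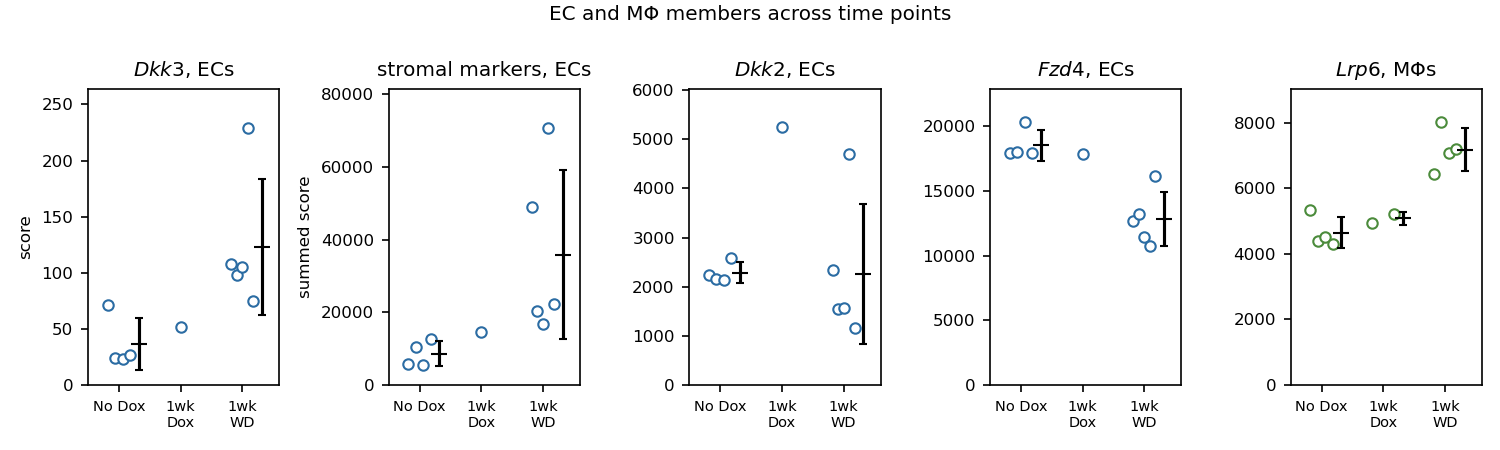
Scores by time point of *Dkk3*, *Dkk2* and *Fzd4* in ECs and *Lrp6* in MΦs, with the summed score of 10 stromal markers in ECs; circles are samples, and bars are mean ± SD where there is more than 1 sample. *Dkk3* and the stromal sum are both higher at 1wk WD, *Fzd4* is lower, and *Lrp6* in the 4 WD MΦ samples is at 6435 or more.

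In MΦs no member passed between time points: 0 of 26 at 1wk Dox against No Dox (2.26% of all genes passed), 0 at 1wk WD against No Dox (0.626%) and 0 at 1wk WD against 1wk Dox (0.0866%). At an unadjusted p under 0.05 with a 2-fold difference were 1, 1 and 0 of the 26 members, against 6.55%, 4.97% and 1.82% of genes. They were *Rspo4* at 1wk Dox, at 45 and 22 against 12, 1, 1 and 6 (2.90, SE 1.18, adjusted p = 0.181), with β cell markers at 8124 and 17698 in these libraries against 1960, 46016, 6709 and 3237, and *Fzd1* at 1wk WD, at 102, 176, 118 and 64 against 137, 19, 39 and 28 (1.37, SE 0.60, adjusted p = 0.266). For *Fzd1*, the No Dox values of 19 and 28 are those of replicates 2 and 4, the libraries rich in acinar markers.

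The co-receptor *Lrp6*, also named after its values were seen, separated the MΦ time points. It scored 5347, 4401, 4522 and 4318 at No Dox, then 4945 and 5226 with Dox, and 6435, 8022, 7079 and 7210 after withdrawal. All 4 WD values were above the other 6, with a log2 difference from No Dox of 0.63 (SE 0.11, adjusted p = 0.0261), which is under 2-fold and so not called. Between the same groups the 8 macrophage markers summed to 264926 to 368539 at No Dox and 382178 to 469095 at 1wk WD, and the 6 markers of other leukocytes to 10903 to 12562 and 7662 to 10052. Neither sum overlapped, and 2 No Dox libraries were rich in acinar markers. The sums of duct (2832 to 3583 and 1552 to 2228), lymphatic (448 to 1108 and 229 to 379) and Schwann cell markers (284 to 425 and 453 to 869) did not overlap either. Their part in the result was not tested. *Lrp6* was the only 1 of 26 members not overlapping between 1wk WD and No Dox, against 9.24% of genes. Between 1wk Dox and No Dox 4 members did not overlap (*Wnt8a*, *Wnt11*, *Rspo4* and *Znrf3*, against 30.9%) and between 1wk WD and 1wk Dox 9 did not (against 30%). With 26 members tested these are 15.4%, under the share of all genes, and 34.6%, near it. The 1wk Dox MΦ libraries, the 1wk Dox EC library and 1wk WD β cell replicate 3 carry library numbers from another range than the rest. For MΦs and for ECs, 1wk Dox and that range therefore cannot be told apart.

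Whether a change differed between cell types was tested as an interaction. For 1wk WD against No Dox, 0 of 28 members passed between ECs and MΦs (1.40% of genes), 0 of 35 between ECs and β cells (0.0913%) and 0 of 37 between MΦs and β cells (0.00%), and for 1wk Dox against No Dox 0 of 34 passed between MΦs and β cells (0.00%). At an unadjusted p under 0.05 with a 2-fold difference were 4, 4, 1 and 1 members, against 9.04%, 7.31%, 4.32% and 3.18% of genes. *Wnt11* was the one between MΦs and β cells, its change in MΦs being lower than that in β cells by -1.32 (SE 0.40, adjusted p = 0.541), and it was among the 4 between ECs and β cells (-1.62, SE 0.54, adjusted p = 0.247). The others were *Fzd9* (-3.69), *Dkk2* (-1.99) and *Dkk4* (-3.16) there, *Wnt5b* (1.30), *Wnt16* (1.17), *Fzd1* (-1.41) and *Lgr4* (1.14) between ECs and MΦs, and *Rspo4* (3.53) at 1wk Dox, with adjusted p of 0.162 to 0.703. Without No Dox β cell replicates 3 and 4, *Fzd9* (-5.44), *Dkk2* (-3.22) and *Wnt11* (-2.11) passed between ECs and β cells (16.5% of genes), and *Dkk4* did not. Between MΦs and β cells *Wnt11* (-1.81, 9.32% of genes) and, at 1wk Dox, *Rspo4* (4.48, 6.24%) then passed. The No Dox β cell libraries left in these fits are the stromal-poor ones.

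Of the other pathway genes, 1 passed in a time point comparison. *Ccnd1*, which encodes cyclin D1 and is a target of β-catenin as well as of growth factor signals, scored 4867 to 6333 in No Dox ECs, 10356 in the single 1wk Dox sample and 4052, 3978, 2113, 2779 and 1748 at 1wk WD, a log2 difference of -1.05 (SE 0.23, adjusted p = 0.025). The other target genes did not pass in ECs: *Axin2* was 88 to 107 at No Dox and 92 to 124 at 1wk WD, *Apcdd1* 1284 to 1445 and 772 to 1211, *Nkd1* 10 to 51 and 11 to 40, *Lef1* 1043 to 1168 and 651 to 1512, and *Tcf7* 66 to 155 and 63 to 108. Of these only *Apcdd1* did not overlap between the groups, being lower at 1wk WD. *Nkd2* and *Myc* did not pass either, and their 1wk WD scores are not printed. Counted by list, 1 of 8 targets tested passed in ECs at 1wk WD, where 1.76% of all genes did, against 0 of 18 core components of β-catenin signalling, 0 of 13 genes of the β-catenin-independent branch, 0 of 6 Norrin and vascular cofactors and 0 of 4 secretion and surface regulators. In β cells and MΦs 0 genes of these 5 lists passed in any time point comparison. Of all genes, 0.0122%, 0.00% and 0.00% passed in β cells and 2.26%, 0.626% and 0.0866% in MΦs. As an interaction of 1wk WD against No Dox between ECs and MΦs, 1 of 8 targets and 1 of 6 Norrin and vascular cofactors passed (1.40% of all genes), *Ccnd1* (-1.17, SE 0.29, adjusted p = 0.0414) and *Slc2a1*, the glucose transporter GLUT1 (-1.10, SE 0.26, adjusted p = 0.0392). *Slc2a1* scored 1394 to 1650 at No Dox and 743 to 1399 at 1wk WD in ECs, and 1051 to 1661 and 1729 to 2574 in MΦs. No gene of these lists passed in the other 3 interactions.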

How the data were processed

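RNA from sorted islet β cells, ECs and MΦs was amplified, sequenced and mapped to mm9 with TopHat2 2.0 by the authors, per the labels and the study's methods; the table deposited by the authors holds scores, TMM-normalised expression values that are all whole numbers of 1 or more. The scores are not counts, so depth, intervals and count tests are not given. Samples were grouped by the labels' cell type and treatment; 6 columns of the table belong to no sample used here. Score columns were transformed as log2(score + 1), and genes whose mean score reached 20 in a fitted group were tested in limma 3.58.1 under R 4.3.3 (moderated test with a trend, two-sided, Benjamini-Hochberg over all genes tested), with a gene called at a 2-fold difference and an adjusted p under 0.05. Fold changes on this scale understate the change of low genes. Time points were fitted within a cell type, cell types within a time point, and differences between changes as interaction terms. The study's own z-score test could not be repeated. The test was tried on simulated scores first. Coordinates and overlaps came from GENCODE M1 (22438 of 22850 genes at the same position). The rule for statistics was to print those of members called, and of members with a 2-fold difference at an unadjusted p under 0.05 between time points, with scores per sample for members whose group mean reached 200. Of the cell type calls, only those of the members described are printed, mostly at No Dox, and the rest are given as counts. *Fzd4* in ECs and *Lrp6* in MΦs were named after their values were seen; other pathway genes are those called between time points and 11 chosen whatever their values (*Axin2*, *Lef1*, *Tcf7*, *Nkd1*, *Apcdd1*, *Wls*, *Porcn*, *Ndp*, *Tspan12*, *Ror2* and *Ryk*). Alternatives were other pseudocounts (0.1 and 20), filters (none, 200), scalings, array weights, no trend, a replicate block and leaving out each replicate. The rule for the members uses gene symbols only, but these gene families and the lists were chosen with earlier results of these data known.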

Additional observations from a re-analysis of the deposited data

Results flagged for a closer look

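Within groups of 4 or 5 samples, 89 sets of scores were examined for a highest or lowest sample standing apart from the rest by Dixon's 95% criterion, which by chance flags about 1 group in 20; 11 were flagged. In No Dox ECs these were *Dkk3* in replicate 1 (71 against 23 to 27 in the others), *Fzd4* in replicate 3 (20325 against 17917 to 18005), *Wnt2b* in replicate 1 (2227 against 1581 to 1629) and *Lgr4* in replicate 3 (595 against 892 to 944). In 1wk WD ECs *Dkk3* stood apart in replicate 4 (229 against 75 to 108), the library with the highest stromal marker sum of the ECs. In No Dox β cells *Fzd5* was low in replicate 1 (168 against 356 to 388) and *Wnt2b* high in replicate 4 (1838 against 1006 to 1068). In 1wk Dox β cells *Fzd6* was low in replicate 4 (131 against 956 to 1102) and *Fzd8* in replicate 5 (22 against 222 to 282). In MΦs *Fzd4* was low in No Dox replicate 3 (78 against 258 to 275) and *Lgr4* high in 1wk WD replicate 4 (262 against 226 to 231). Between ECs and MΦs the change from No Dox to 1wk WD differed by the interaction test for 2 other genes of the pathway, *Ccnd1* (a log2 difference of changes of -1.17; MΦs scored 5718 to 7340 at No Dox and 6602 to 7142 at 1wk WD) and *Slc2a1* (-1.10).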

How the results depend on the processing

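The counts of members called were 0 to 1 in each time point comparison under the alternatives that left out at most 1 sample. In ECs between 1wk WD and No Dox the 1 call (*Dkk3*) became 0 with no filter on low scores, with a minimum mean score of 200 and with no trend of the spread, ranged from 0 to 1 when 1 replicate was left out, and was 0 without 1wk WD replicates 1 and 4; over 19 alternatives its adjusted p ran from 0.00811 to 0.162. Array weights gave 1 member (*Wnt8a*) in MΦs between 1wk WD and 1wk Dox. A minimum mean score of 200 left 15 members instead of 23 between MΦs and β cells at 1wk WD, with 22 instead of 37 tested. The interaction of ECs against MΦs ranged from 0 to 1 when a replicate was left out (1 without No Dox MΦ replicate 1), and that of ECs against β cells was 17 with array weights, where 20.7% of all genes passed. The array weights had not converged in that fit, nor in 7 more of the 17 fits with weights (the 3 β cell comparisons, the 3 cell type contrasts at 1wk WD and the interaction of MΦs against β cells at WD), so these 8 fits say little about stability. Without No Dox β cell replicates 3 and 4, chosen after seeing the data, β cell members called against No Dox went from 0 to 3 (with Dox) and from 0 to 5 (after withdrawal), and the interactions gave 9 (ECs against β cells at WD, 16.5% of genes), 5 (MΦs against β cells at WD, 9.32%) and 2 (MΦs against β cells at Dox, 6.24%). Without No Dox MΦ replicates 2 and 4, also chosen after seeing the data, the interaction of ECs against MΦs gave 1 (*Fzd4*), where 5.58% of genes passed. All other counts stayed within 1.5 times. No value of a single member changed direction: of 2049 alternative values of cell type calls 1921 kept their side of the threshold and 128 did not pass. The samples were not treated as paired by replicate number. Deviations of same-numbered samples correlated by -0.466 to 0.371, over 0.1 in 10 of 42 pairs. The highest, 0.371, was between ECs and MΦs of No Dox replicate 2, both rich in acinar markers, followed for these cell types by 0.167 in No Dox replicate 1. Whether cell types shared islet pools cannot be told from the labels and was not tested. With a replicate block 1 member was called in ECs at WD and 16, 16 and 13 (No Dox) and 22, 22 and 17 (1wk WD) in the cell type contrasts, all within 1.5 times.

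The score table gives no depth, so small differences among low members could not be weighed against counting error. With 1 EC and 2 MΦ samples at 1wk Dox, and β cell libraries that differ in other cells' markers, changes in β cells and at 1wk Dox rest on few or unlike samples. For 10 members the annotation places another gene over them, and whether the counting used strand is not given in the sources used here.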

Other observations

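Summed scores of the remaining marker lists were also measured over all time points. In β cell libraries 5 duct markers summed to 3215 to 9802, 6 alpha and delta cell markers to 22914 to 206965, 4 lymphatic markers to 2714 to 10495, 5 Schwann cell markers to 822 to 4893 and 6 markers of other leukocytes to 80 to 4245. In ECs the same sums were 123 to 640, 929 to 2098, 11596 to 21090, 119 to 616 and 16 to 119, and in MΦs 1436 to 3583, 1845 to 31600, 229 to 1108, 284 to 869 and 5929 to 12562.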
